A study of Mus musculus with 12 samples.

Results

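The genes described here encode the proteins of the mitochondrial ribosome. They were taken by symbol, as every gene named Mrpl or Mrps followed by a number and not marked as a pseudogene, which gave 77 of the 12643 genes measured. Of these, 50 encode proteins of the large subunit and 26 proteins of the small subunit. Mrps36 carries the name but is known as part of a 2-oxoglutarate dehydrogenase complex, and it is listed apart. All 77 passed the filter on low counts. Mrpl23 was not analysed here.

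The mitochondrial ribosome translates the few proteins encoded by mitochondrial DNA, all of them subunits of the respiratory chain and ATP synthase. Its rRNAs are transcribed in the organelle, while its proteins are encoded in the nucleus, translated on cytosolic ribosomes and imported. Some have counterparts in bacterial ribosomes and others exist in mitochondria alone. Beta cells depend on mitochondrial ATP production to couple glucose to insulin secretion.

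The cells were MIN6, an insulinoma line of the mouse used as a model of pancreatic beta cells. Cultures at passage 29 were nucleofected with NT siRNA, the control, or with siRNA against Pdx1, a homeodomain factor that activates insulin genes, and were harvested after 72 h. RNA was isolated by translating ribosome affinity purification, which gives IP RNA, carried along with purified cytosolic ribosomes, and total RNA. Each combination of siRNA and fraction (NT total, Pdx1 total, NT IP, Pdx1 IP) had 3 libraries, 12 in all, so every group shares the line, the passage, the nucleofection and the 72 h. It is a line in culture, not islet tissue, and no label tells if the replicates of a group are independent cultures. A p-value here reflects the scatter of these libraries, and that scatter could be purely technical.

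Libraries held 29430690 to 45806807 gene counts, and the lowest count of a member in any library was 63. The knockdown was visible in both fractions. Pdx1 fell from 117.9, 123.2 and 109.6 CPM (counts scaled to a common library size, with TMM, the trimmed-mean factors of edgeR) in NT total RNA to 47.65, 57.39 and 47.94 CPM in Pdx1 total RNA, a log2 fold change of -1.20 ± 0.10 (SE; quasi-likelihood test in edgeR, Benjamini-Hochberg adjusted p = 9.97e-08). All 9 beta-cell markers listed were measured, against 1 of 7 acinar markers (Cela2a, at most 0.8 CPM) and 0 of 7 endothelial, stromal and immune markers. The summed level of the 2 duct markers measured of 4, Krt7 and Spp1, was 138.82 to 146.34 CPM in NT total RNA and 276.54 to 331.33 CPM in Pdx1 total RNA. Its part in the results on the members was not tested. In bulk RNA, fewer cells with a transcript and less of it per cell cannot be told apart.

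Promoters come first, because NRF1 and the ETS factor GABP are known activators of nuclear genes for mitochondrial proteins. RefSeq promoter windows (GRCm38.p6, 250 bases before to 50 after a start) were found for 68 members, in 74 windows. The NRF1 motif, 10 letters long with 1 free position and seen in capitals in the sequences, searched on both strands, lay in 13 of the 74 windows, 17.6%, against 9.8% of the windows of all measured genes and 4.6% of all windows in the table. The ETS motif CCGGAAGT lay in 16.2% of the member windows, 7.9% of the measured and 3.9% of all. The windows printed here were chosen after their values were seen, as members whose transcripts fell in at least 1 fraction and that carry a match close to the start. Each is 150 bases, 5′ to 3′ on the strand of the gene, with the matches in capitals: NRF1 in the first 3, ETS in the last.
Mrpl45, chr11:97315566-97315715, plus strand, 150 to 1 bases before the start: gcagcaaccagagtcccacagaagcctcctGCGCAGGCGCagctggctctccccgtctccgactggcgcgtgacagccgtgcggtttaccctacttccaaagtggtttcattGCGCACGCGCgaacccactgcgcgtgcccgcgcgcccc
Mrpl12, chr11:120484463-120484612, plus strand, 174 to 25 bases before the start: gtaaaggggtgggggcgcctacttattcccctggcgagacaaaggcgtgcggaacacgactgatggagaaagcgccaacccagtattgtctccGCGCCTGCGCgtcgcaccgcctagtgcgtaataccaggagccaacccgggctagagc
Mrpl9, chr3:94443168-94443317, plus strand, 168 to 19 bases before the start: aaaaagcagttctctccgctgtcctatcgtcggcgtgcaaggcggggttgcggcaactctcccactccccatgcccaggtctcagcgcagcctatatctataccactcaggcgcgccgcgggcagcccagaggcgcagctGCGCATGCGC
Mrps22, chr9:98601680-98601829, minus strand, 150 to 1 bases before the start: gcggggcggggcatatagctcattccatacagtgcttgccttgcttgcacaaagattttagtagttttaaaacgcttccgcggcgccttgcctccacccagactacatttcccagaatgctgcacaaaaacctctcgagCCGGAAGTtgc
A match is a description of the letters, not a bound site. The printed stretch of Mrpl45 has 2 matches, both on the strand opposite the gene, and another lies just after the start. The Mrpl9 match reads the same on both strands. For Mrpl45 and Mrpl9 the gene is annotated from further upstream, at 97314923 and 94443154, so their printed stretches lie inside it.

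A further 6 motifs were searched on both strands. The YY1 motif AAGATGGCG lay in 10.8% of member windows against 3.0% of the windows of measured genes and 1.4% of all windows. The E-box of MYC, CACGTG, was in 9.5% against 10% of measured and 7.2% of all windows; counted by gene, since some genes have several overlapping windows, it was in 7.4% of members and 12% of measured genes. The CCAAT box was in 40.5% against 38.1% and 37.4% (by gene, 39.7% of members and 43.6% of measured genes). The GC box, GGGCGG, was in 51.4% against 62.7% and 35.7%. The letters TATAAA were in 6.8% of both member and measured windows (13.6% of all). The homeodomain letters TAATTA were in 2.7% against 2.5% (5.3% of all). The GC box and the NRF1 motif share GC-rich letters, so their windows are not independent. Another gene started within 1 kb on the opposite strand for 32 of the 77 members, 41.6%, against 2028 of the 12524 measured genes with a matched start, 16.2%. That start could lie before or after the member's own, so some of these pairs overlap. Mrpl46 and Mrps11 are each other's neighbour, and Mrpl18 starts beside Tcp1, which encodes a subunit of the cytosolic chaperonin.

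**Figure D1:**
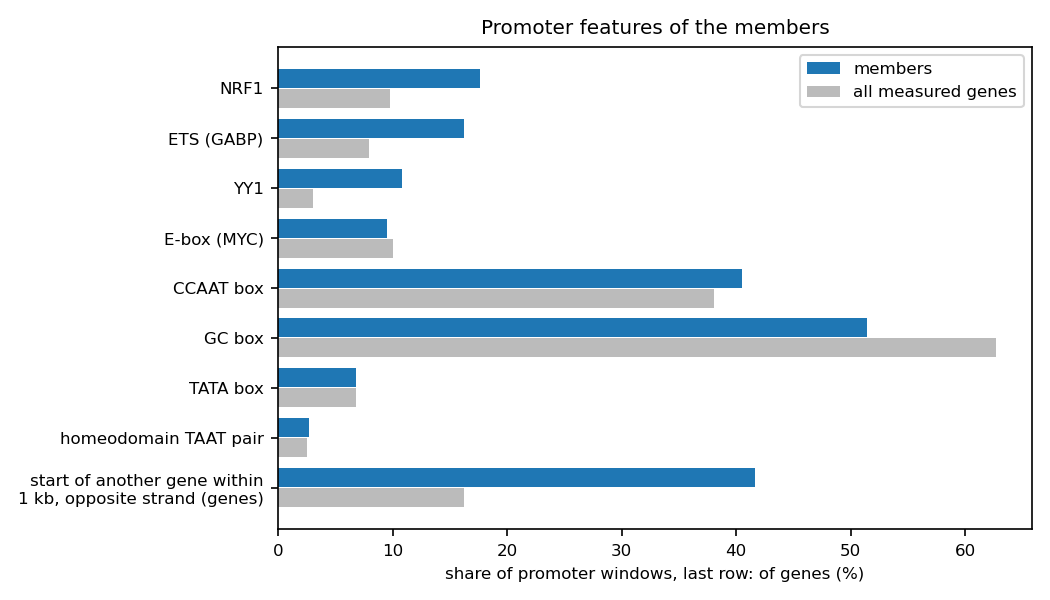
Share of promoter windows that hold each motif, for the 74 windows of members (blue) and the windows of all measured genes (grey), in percent; the last pair of bars gives the share of genes with another gene's start within 1 kb on the opposite strand. The NRF1, ETS and YY1 bars and the last pair are longer for the members (17.6%, 16.2%, 10.8% and 41.6%) than for all measured genes (9.8%, 7.9%, 3.0% and 16.2%), and the GC box bar is shorter (51.4% against 62.7%).

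In NT total RNA the members lay at 4.95 to 58.4 CPM, with a median of 20.9 CPM against 19.3 CPM for all genes. Levels of different genes were compared per kb of the GENCODE transcript matched to the RefSeq accession, whose ends may differ from those used in MIN6. Highest were Mrps21 (a homologue of bacterial S21) at 55.7 ± 5.47 CPM per kb, Mrpl33 (bacterial L33) at 55.0 ± 7.65 and Mrps12 (bacterial S12, at the decoding centre) at 46.5 ± 4.73 (SD, n = 3). Mrps21 and Mrpl33 did not differ beyond their SDs, and Mrps12 lay below both by more than either SD. Lowest were Mrpl47 at 2.12 ± 0.19, Mrps35 at 2.81 ± 0.0925 and Mrpl35 at 3.09 ± 0.248 CPM per kb. The order depends on the transcript ends: per kb of coding sequence, Mrpl33 ranked 1 and Mrps21 ranked 4, while the lowest was Mrps31. Mrps21 has a near-identical copy elsewhere, so its reads may be divided. Mrpl33 shares 37.0% of its exons on the same strand with another annotated gene, so its count is uncertain too.

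Summed over the 77 genes, the level was 1811.7, 1602.8 and 1679.8 CPM in NT total RNA, and 1567.1, 1394.9 and 1342.2 CPM in Pdx1 total RNA. All 3 Pdx1 total libraries were below all 3 NT total libraries. The sum was 2921.8, 2742.5 and 2965.3 CPM in NT IP RNA, and 2898.6, 2699.2 and 2652.1 CPM in Pdx1 IP RNA. The IP groups overlapped, and every IP library was above every total library. The ratio of summed large-subunit to summed small-subunit CPM, which does not adjust for length, was 2.282 to 2.367 over the 6 total libraries and 2.444 to 2.507 over the 6 IP libraries.

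In total RNA, Pdx1 siRNA was accompanied by lower levels of most members, by modest amounts. In the edgeR test 46 of the 77 fell (59.7%; among all genes tested 29.2% fell) and Mrps31 rose (among all genes 23.8% rose), and the remaining 30 did not pass. The median log2 fold change was -0.27 against -0.04 over all genes, and 72 of 77 values were negative. No member changed 2-fold. The libraries of the groups did not overlap for 42 members that were lower (32.6% of all genes) and 2 that were higher (26.1% of all genes). Of the 77, 21 fell without NT total replicate 1, 28 without NT total replicate 3 and 29 without Pdx1 total replicate 3. Of all genes 21.3%, 21.0% and 23.7% then fell, compared with 29.2% in the full fit. Leaving out Pdx1 total replicate 2 gave 33 (25.9% of all genes fell), and Mrps31 then did not pass.

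Genes of both subunits fell more often than all genes, of which 29.2% fell and 23.8% rose, with a median of -0.04. Of the large-subunit genes 31 of 50 fell and 0 rose, with a median log2 fold change of -0.27, and of the small-subunit genes 15 of 26 fell and 1 rose, with a median of -0.26. Among members with a bacterial homologue 29 of 45 fell (median -0.27), and among those specific to mitochondria 17 of 31 fell and 1 rose (median -0.26). Leaving out 6 members with a near-identical copy kept 44 of 71 that fell.

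The largest decrease in total RNA was that of Mrpl18 (protein-coding, GRCm38 chr17:12911345-12917787, minus strand). It encodes the homologue of bacterial L18 in the central protuberance of the large subunit. Its levels were 19.1, 15.2 and 17.2 CPM in NT total RNA and 11.7, 9.004 and 8.14 CPM in Pdx1 total RNA. The groups did not overlap, and the log2 fold change was -0.84 ± 0.12 (SE, adjusted p = 2.27e-05). Mrpl18 fell as clearly in IP RNA, from 28.3, 27.1 and 30.0 CPM to 17.6, 16.6 and 15.4 CPM (log2 fold change -0.79 ± 0.11, adjusted p = 2.42e-05). Its neighbour on the opposite strand, Tcp1, also fell, with log2 fold changes of -0.32 in total and -0.21 in IP RNA (adjusted p = 0.00341 and 0.0314). Of the Mrpl18 exons 11.6% lie opposite Tcp1, where reads cannot be told apart.

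Mrpl14 (chr17:45685722-45698495, plus strand), the homologue of bacterial L14, had 22.7, 18.5 and 21.2 CPM in NT total RNA and 13.9, 11.8 and 10.9 CPM in Pdx1 total RNA. These groups were apart, with a log2 fold change of -0.77 ± 0.12 (adjusted p = 7.56e-05). In IP RNA, Mrpl14 went from 41.4, 38.1 and 48.1 CPM to 38.5, 30.4 and 31.8 CPM, where the groups overlapped (-0.35 ± 0.11, adjusted p = 0.0164). Its neighbour Tmem63b moved the other way, with a log2 fold change of 0.57 in total RNA. Of the Mrpl14 exons 16.4% lie opposite Tmem63b, where reads cannot be told apart. Mrpl14 carries an NRF1 motif.

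Mrps6, the homologue of bacterial S6, had 7.29, 5.71 and 6.03 CPM in NT total RNA and 4.91, 3.95 and 3.59 CPM in Pdx1 total RNA, without overlap (log2 fold change -0.61 ± 0.12, adjusted p = 0.000596). It was lower in IP RNA too (-0.38 ± 0.11, adjusted p = 0.00887). Part of Mrps6, 36.1% of its exons, is shared on the same strand with other annotated genes, so its count is uncertain.

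Mrpl42, a large-subunit protein found in mitochondria alone, had 28.2, 22.7 and 26.8 CPM in NT total RNA and 18.4, 16.5 and 16.2 CPM in Pdx1 total RNA (-0.60 ± 0.11, adjusted p = 0.000217). The decrease in IP RNA was alike (-0.56 ± 0.10, adjusted p = 0.000306), and the groups were apart in each fraction. Of the Mrpl42 transcript 63.1% matches a near-identical copy elsewhere, so its count is uncertain. Mrpl40, another mitochondria-specific protein of the central protuberance, went from 21.6, 20.5 and 19.4 CPM to 16.6, 13.5 and 12.4 CPM in total RNA (-0.54 ± 0.11, adjusted p = 0.000562). It also fell in IP RNA (-0.48 ± 0.10, adjusted p = 0.00102).

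Mrpl54, a further mitochondria-specific protein of the large subunit, had 27.6, 20.6 and 25.1 CPM in NT total RNA and 18.1, 15.7 and 15.4 CPM in Pdx1 total RNA, without overlap (-0.58 ± 0.10, adjusted p = 0.000205). In IP RNA its levels were 51.5, 48.8 and 56.1 CPM with NT siRNA and 53.0, 50.3 and 50.3 CPM with Pdx1 siRNA, which overlap. The log2 fold change in IP RNA was -0.03 ± 0.10 (adjusted p = 0.824). The difference between the fractions is taken up with the interaction.

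Mrps31 (chr8:22410449-22429669, plus strand), a mitochondria-specific protein of the small subunit, was the exception in total RNA. It had 5.82, 5.82 and 6.05 CPM with NT siRNA and 6.93, 7.43 and 7.17 CPM with Pdx1 siRNA. All Pdx1 libraries were above all NT libraries (log2 fold change 0.285 ± 0.09, adjusted p = 0.0141); without scaling factors the value was 0.01 (adjusted p = 0.954). In IP RNA the values were 7.92, 8.66 and 7.88 against 8.01, 7.09 and 6.42 CPM, which overlap (-0.19 ± 0.09, adjusted p = 0.0786).

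**Figure D2:**
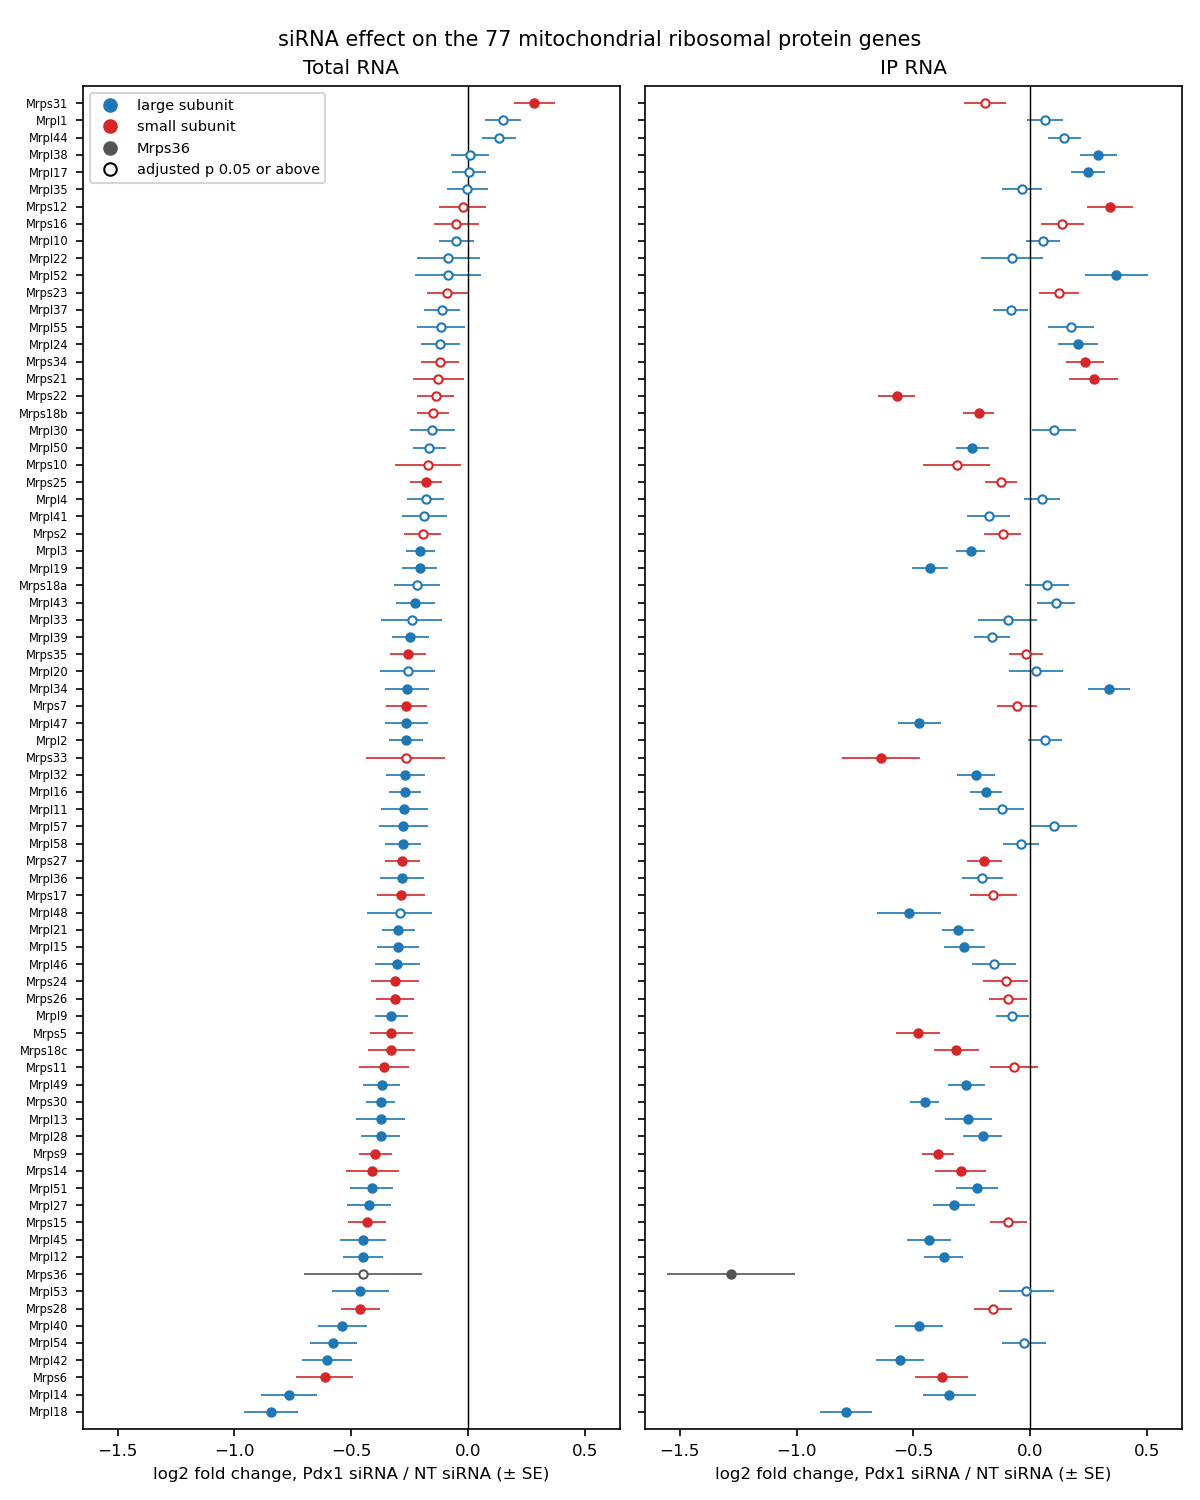
log2 fold change of each member, Pdx1 siRNA over NT siRNA, with its SE as a horizontal bar, in total RNA (left) and IP RNA (right), for 3 libraries in each group; genes are ordered by the value in total RNA, filled points passed the edgeR test and colours mark the subunit. In total RNA 72 of 77 points lie left of zero, while in IP RNA 21 of 77 lie right of it, of which 8 passed; without scaling factors none of those 8 passed and Mrpl38, Mrps21, Mrpl17, Mrps34 and Mrpl24 lay left of zero.

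In IP RNA the members were more mixed. The edgeR test called 31 lower (40.3%; among all genes 30.4%) and 8 higher (10.4%; among all genes 29.2%), and the median log2 fold change was -0.16 against -0.01 over all genes. The libraries did not overlap for 35 members that were lower and 9 that were higher (32.6% and 32.3% of all genes). Those that rose were Mrpl52, Mrps12, Mrpl34, Mrpl38, Mrps21, Mrpl17, Mrps34 and Mrpl24, with log2 fold changes from 0.21 to 0.37; on library sizes without scaling factors, where the median of all genes was -0.32, the split was 58 lower and 0 higher, and Mrpl38, Mrps21, Mrpl17, Mrps34 and Mrpl24 turned negative. NT IP replicates 1 and 2 stood apart from replicate 3 at several members. With both left out, which leaves a lone NT IP library assumed to vary like the other groups, 15 of 77 members fell, close to the share of all genes (19.4%), and 0 rose (19.3% of all genes). A term setting NT IP replicate 3 and the 3 Pdx1 IP libraries apart from the other 8 libraries gave 20 that fell (20.6% of all genes) and 0 that rose (20.6%). The count that rose was 4 without NT IP replicate 1, 4 without NT IP replicate 2 and 3 without Pdx1 IP replicate 1, where 25.4%, 25.5% and 26.4% of all genes rose.

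Counted by fraction, 25 members fell in both total and IP RNA, 20 fell in total RNA and were not called in IP, and 6 fell in IP and were not called in total. Those 6 were Mrpl48, Mrpl50, Mrps18b, Mrps22, Mrps33 and Mrps36. A further 7 rose in IP and were not called in total RNA, Mrpl34 fell in total (a call lost with several libraries left out, given with the interaction) and rose in IP, Mrps31 rose in total RNA, and 17 were called in neither. These comparisons share no library, although the labels do not say whether IP and total RNA came from the same cultures. Among all genes 53.0% were called in total RNA and 59.7% in IP RNA, in either direction. Joint calls over all genes were not counted, so the joint numbers only describe the members.

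Mrps12, which lies at the decoding centre, had 64.2, 59.4 and 72.2 CPM in NT IP RNA and 91.8, 75.7 and 80.8 CPM in Pdx1 IP RNA. The groups did not overlap (log2 fold change 0.34 ± 0.10, adjusted p = 0.00714), and the value was 0.20 with adjusted p = 0.269 when NT IP replicates 1 and 2 were left out. In total RNA Mrps12 was level, at 37.5, 31.4 and 31.8 against 36.0, 31.9 and 31.3 CPM (-0.02 ± 0.10, adjusted p = 0.866).

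Mrpl52, in the central protuberance, had 35.9, 30.1 and 39.5 CPM in NT IP RNA and 51.8, 43.4 and 41.3 CPM in Pdx1 IP RNA, without overlap (0.37 ± 0.14, adjusted p = 0.0279). Its total RNA values overlapped (-0.09 ± 0.14, adjusted p = 0.637). Mrpl17, a homologue of bacterial L17 near the polypeptide exit, had 109, 102 and 111 CPM in NT IP RNA and 135, 121 and 126 CPM in Pdx1 IP RNA (0.25 ± 0.07, adjusted p = 0.00796; -0.06 without scaling factors). Mrpl38 had 41.5, 43.4 and 46.1 CPM against 54.8, 51.0 and 54.6 CPM in IP RNA, again without overlap (0.29 ± 0.08, adjusted p = 0.0053; -0.02 without scaling factors). Of the other 4 that rose, Mrpl34 is described with the interaction, Mrps21 has a near-identical copy, and Mrpl24 and Mrps34 share 48.5% and 62.7% of their exons with genes on the opposite strand, Rrnad1 and Mapk8ip3, whose reads cannot be told apart here.

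Among the members that fell in IP RNA, Mrps22 (chr9:98588730-98601679, minus strand), a mitochondria-specific protein of the small subunit, had 14.1, 13.5 and 13.3 CPM with NT siRNA and 9.78, 9.41 and 8.42 CPM with Pdx1 siRNA. The groups were well apart, with a log2 fold change of -0.57 ± 0.08 (adjusted p = 1.86e-05), and -0.54 with adjusted p = 0.00236 without NT IP replicates 1 and 2. In total RNA Mrps22 was at 9.34, 10.7 and 9.57 CPM against 8.93, 8.94 and 9.10 CPM (-0.14 ± 0.08, adjusted p = 0.153). Mrps5, the homologue of bacterial S5, had 17.2, 17.1 and 14.6 CPM in NT IP RNA and 11.7, 12.9 and 10.4 CPM in Pdx1 IP RNA (-0.48 ± 0.09, adjusted p = 0.000411), and -0.32 with adjusted p = 0.0586 without those libraries. It fell in total RNA as well (-0.33 ± 0.09, adjusted p = 0.00725).

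For Mrps36, Mrps33 and Mrpl48 the call in IP RNA rested on NT IP replicates 1 and 2. Mrps36 (chr13:100735940-100744659, minus strand), which links subunits of the dehydrogenase complex, had 9.77, 8.78 and 3.65 CPM in NT IP RNA and 2.64, 3.32 and 3.08 CPM in Pdx1 IP RNA. NT IP replicate 3 lay beside the Pdx1 libraries, and the log2 fold change went from -1.28 (adjusted p = 0.000881) to -0.26 (adjusted p = 0.369) without the other NT libraries. Mrps33, of the small subunit, had 22.5, 18.6 and 12.4 CPM against 11.7, 12.2 and 10.4 CPM, and went from -0.64 (adjusted p = 0.004) to -0.12 (adjusted p = 0.578). Mrpl48, of the central protuberance, had 26.6, 26.6 and 16.2 CPM against 16.4, 15.9 and 16.1 CPM, and went from -0.52 (adjusted p = 0.00454) to -0.01 (adjusted p = 0.974). Of the length of the Mrps36 transcript 53.1% matches transcripts elsewhere. The part of such matches in these values was not tested.

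**Figure D3:**
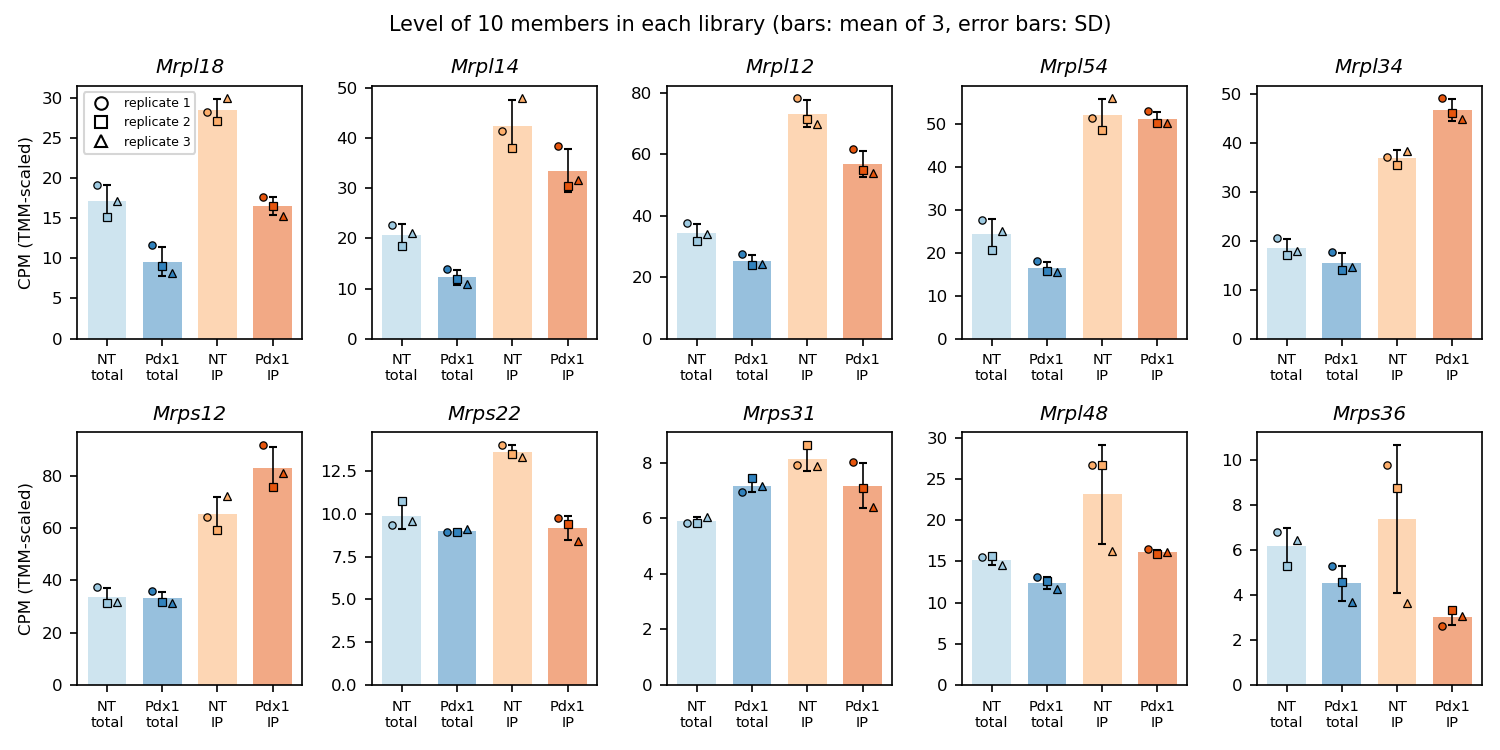
Level of 10 members in each of the 12 libraries, in TMM-scaled CPM; bars are group means of 3 libraries, error bars SDs and symbols the replicates. Mrpl18 and Mrpl14 are lower with Pdx1 siRNA in total RNA without overlap, Mrpl54 is lower with Pdx1 siRNA in total RNA while its IP groups overlap, and for Mrps36 and Mrpl48 NT IP replicate 3 lies with the Pdx1 IP libraries; the higher Mrpl34 level in IP RNA with Pdx1 siRNA is a difference of 0.03 on the log2 scale without scaling factors.

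By role, the L7/L12 stalk, which recruits translation factors to the large subunit, split. Mrpl12, whose product also binds the mitochondrial RNA polymerase, had 37.6, 31.8 and 33.9 CPM in NT total RNA and 27.5, 24.0 and 24.2 CPM in Pdx1 total RNA, without overlap (-0.45 ± 0.09, adjusted p = 0.000471). It fell in IP RNA from 78.3, 71.5 and 70.0 CPM to 61.6, 54.8 and 53.9 CPM (-0.37 ± 0.08, adjusted p = 0.00151). Mrpl11 fell in total RNA with overlapping libraries (-0.27 ± 0.10, adjusted p = 0.0303), and Mrpl10, the base of the stalk, stood at 52.5 ± 2.12 and 50.8 ± 4.04 CPM (SD, n = 3; adjusted p = 0.599).

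Around the polypeptide exit 5 of 6 genes listed were measured. Mrpl45, which holds the ribosome to the inner membrane, had 13.6, 13.3 and 13.3 CPM in NT total RNA and 10.52, 10.4 and 8.52 CPM in Pdx1 total RNA, without overlap (-0.45 ± 0.10, adjusted p = 0.00118), and fell in IP RNA (-0.43 ± 0.10, adjusted p = 0.00113). Mrpl47 fell in both fractions (-0.26 in total and -0.47 in IP RNA, adjusted p = 0.0231 and 0.000381). Mrpl17 and Mrpl24 were not called in total RNA and rose in IP (both negative there without scaling factors), and Mrpl22, which has a near-identical copy over 86.0% of its transcript, was called in neither. In the central protuberance 4 of 7 fell in total RNA (among all genes 29.2% fell), Mrpl18, Mrpl40, Mrpl46 and Mrpl58. The last is a peptidyl-tRNA hydrolase built into the large subunit (-0.28, adjusted p = 0.00833).

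The mammalian genome holds 3 homologues of bacterial S18, of which Mrps18a sits in the large subunit. In the counts above, Mrps18c stands with the members with a bacterial homologue. Mrps18a and Mrps18b were listed there as specific to mitochondria. Mrps18c fell in both fractions (-0.33 in total, adjusted p = 0.0126, with overlap; -0.32 in IP, adjusted p = 0.0102, without). Mrps18b fell in IP RNA (-0.22 ± 0.07, adjusted p = 0.0097), with -0.15 and adjusted p = 0.0713 in total RNA, and 59.1% of its exons lie opposite another gene. Mrps18a passed neither test (-0.22 in total and 0.07 in IP RNA, adjusted p = 0.0723 and 0.545). Of the Mrps18c exons 27.3% are shared on the same strand with another annotated gene, so its count is uncertain.

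The test of whether the siRNA effect differed between the fractions (interaction, IP effect minus total effect) called 0 of 77 members with edgeR, where 0.229% of all genes were called (0.174% higher, 0.0554% lower). That fit does not pair the libraries. With the replicate number as a block edgeR called 3 members, where 2.95% of all genes were called. At an unadjusted p under 0.05 there were 22, of which 19 were positive, against 17.0% of all genes, and DESeq2 called 3, where it called 2.59% of all genes. The interaction was positive for 61 of 77 (54 with DESeq2), with a median of 0.11 against 0.01 over all genes. That median was 0.046 without NT total replicate 1, 0.05 without Pdx1 total replicate 3, 0.052 without Pdx1 IP replicate 1 and 0.221 without Pdx1 total replicate 1. Mrpl34 (chr8:71464926-71465753, plus strand), the homologue of bacterial L34, came nearest, with 20.6, 17.1 and 18 CPM in NT total and 17.8, 14.1 and 14.6 CPM in Pdx1 total RNA, then 37.2, 35.5 and 38.4 CPM in NT IP and 49.2, 46.2 and 44.9 CPM in Pdx1 IP RNA. The total groups overlap and the IP groups do not. The change in total RNA (-0.26, adjusted p = 0.0286) was -0.15 without NT total replicate 1 and missed the threshold there, as it did without NT total replicate 3, without Pdx1 total replicate 2 or 3 and without Pdx1 IP replicate 1 or 3. The interaction was 0.60 ± 0.13 (adjusted p = 0.0564). Mrpl54 had an interaction of 0.55 ± 0.14 (adjusted p = 0.0714), and Mrps22 and Mrps31 had the opposite sign, -0.43 ± 0.11 and -0.48 ± 0.13 (adjusted p = 0.0729 and 0.0834). The 3 called by DESeq2, and the 3 called by edgeR with the block, were Mrpl34, Mrpl54 and Mrps22. Without NT IP replicate 3 edgeR called 2 members higher and 3 lower, where 4.52% of all genes were called, and without Pdx1 total replicate 1 it called 4 higher, where 3.03% were called.

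IP RNA held more of nearly every member than total RNA. With NT siRNA 72 of 77 were higher in IP (93.5%; among all genes 33.8%) and 0 were lower (among all genes 35.9%; 1 with NT IP replicates 1 and 2 left out). The median log2 ratio of IP to total was 0.72 against -0.02 over all genes, 11 members reached 2-fold (2.1% of all genes), and the IP libraries lay wholly above for 73 (37.3% of all genes) and wholly below for 0 (40.2% of all genes). With Pdx1 siRNA 68 were higher (88.3%; among all genes 36.3%) and 0 were lower (among all genes 38.7%), with a median of 0.85, and 29 reached 2-fold (6.81% of all genes). The IP libraries then lay wholly above for 69 (35.7% of all genes) and wholly below for Mrps36 (37.9% of all genes), whose log2 ratio of -0.57 did not pass (adjusted p = 0.0836). A higher CPM in IP RNA is relative to the other RNAs of the fraction and is not an absolute amount per ribosome. All 50 large-subunit genes passed with NT siRNA, and 22 of 26 small-subunit genes.

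The highest ratios with NT siRNA were those of Mrpl33, Mrpl13, Mrpl20, Mrpl54, Mrpl12 and Mrpl28, which lay close together. Mrpl33 had 29, 22.1 and 27.8 CPM in NT total RNA and 59.97, 47.8 and 63.1 CPM in NT IP RNA, a log2 ratio of 1.12 ± 0.13 (adjusted p = 2.4e-06). Mrpl13, the homologue of bacterial L13, had 31.9, 27.7 and 28.9 CPM against 64.6, 57.6 and 67.6 CPM (1.10 ± 0.10, adjusted p = 2.58e-07). Mrpl28, the homologue of bacterial L28, had 51.7, 46.9 and 44.4 CPM against 101, 93.5 and 108 CPM (1.08 ± 0.08, adjusted p = 4.94e-08). In each of these the IP libraries lay wholly above the total libraries, and the ratios differ by less than their SEs. Of the Mrpl33 exons 37.0% are shared on the same strand with another annotated gene, so its count is uncertain. With Pdx1 siRNA Mrpl54 and Mrpl34 had ratios of 1.64 ± 0.10 and 1.60 ± 0.09 (adjusted p = 3.7e-09 and 2.61e-09).

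A few members had no clear enrichment. Mrps10, Mrps27, Mrps36 and Mrps5 were not called with either siRNA. Mrps27 had 16.8, 16.8 and 15.8 CPM in NT total and 15.2, 16.6 and 17.3 CPM in NT IP RNA, which overlap (log2 ratio -0.01 ± 0.07, adjusted p = 0.905). Mrpl19, Mrpl47, Mrps22, Mrps31 and Mrps33 were called with NT siRNA but not with Pdx1 siRNA, and Mrps2 the other way. The difference between the siRNAs is the interaction above, in which edgeR without a block called none of them. DESeq2, and edgeR with the replicate block, called Mrps22.

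Coding length moved with this ratio in all genes. The members' coding sequences are 195 to 1326 bases long, with a median of 564, against 1396 over all genes with a matched transcript. Across the 77 members the log2 ratio with NT siRNA correlated with coding length at r = -0.47 (Spearman rho -0.46), and across 12118 genes at r = -0.64 (rho -0.66); these are correlations across genes that share the same 6 libraries. All genes were divided by coding length into 4 bins of near equal size. In the shortest bin, 62 to 870 bases, the median ratio was 0.51 and 70.4% of genes were higher in IP, while the 58 members there had a median of 0.82 and 56 were higher. In the next bin, 873 to 1395 bases, the median was 0.16 with 42.9% higher, and the 19 members had a median of 0.47 with 16 higher. The part of length in the members' ratio was not tested beyond these values. The ratio also correlated with the mean level, at r = 0.48 across members and 0.22 across all genes.

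**Figure D4:**
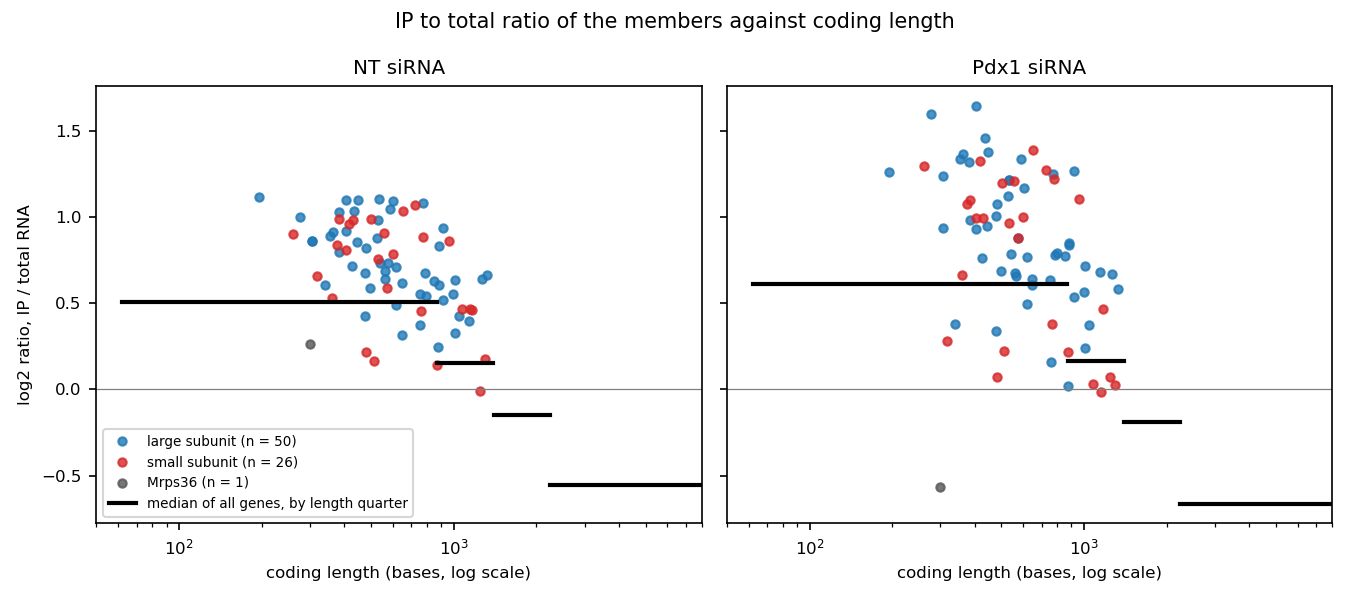
log2 ratio of IP to total RNA of each member against its coding length (log axis, bases) with NT siRNA (left) and Pdx1 siRNA (right); colours mark the subunit, and black lines give the median of all genes in each of the 4 length bins (the axis ends before the longest genes). With NT siRNA the 58 members in the shortest bin have a median of 0.82 against 0.51 for all genes there, and the 19 in the next bin 0.47 against 0.16.

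The siRNA effect in total RNA moved little with coding length, at r = 0.06 across 12118 genes. In the shortest bin 33.0% of all genes and 35 of 58 members fell, with medians of -0.10 and -0.27, and in the next bin 29.1% and 11 of 19 fell, with medians of -0.04 and -0.21. In IP RNA the shortest bin had a median of 0.05 over all genes and -0.12 over the members.

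Read by promoter letters, the members with any of the NRF1, ETS and YY1 motifs and those with a window but none of them had close values. In total RNA 20 of 31 with a motif fell, with a median of -0.28, and 20 of 37 without fell, with a median of -0.26. By motif, 9 of 13 with NRF1, 8 of 12 with ETS and 5 of 8 with YY1 fell. Members with another gene's start within 1 kb on the opposite strand fell in 22 of 32 cases (median -0.29). Those without fell in 24 of 45 (median -0.26). Among the 29 neighbours that are not members 10 fell and 5 rose in total RNA, where 29.2% of all genes fell and 23.8% rose. Some moved far more than their partner: Ska3, a kinetochore gene beside Mrpl57, had log2 fold changes of -1.75 in total and -2.45 in IP RNA, while Mrpl57 had -0.28 and 0.10. Ska3 was picked here for its size after its values were seen.

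The pathway has further genes under other names. Of 5 mitochondrial ribosome proteins named otherwise, 4 fell in total RNA (among all genes 29.2% fell). Gadd45gip1 (a large-subunit protein) went from 49.54 ± 0.785 to 36.24 ± 2.52 CPM (SD, n = 3; log2 fold change -0.45, adjusted p = 0.000211). Ptcd3 (a small-subunit protein) had -0.28 in total and -0.52 in IP RNA (adjusted p = 0.00336 and 1.91e-05). Chchd1 had -0.43 and -0.38 (adjusted p = 0.00374 and 0.0064). Dap3, a GTP-binding protein of the small subunit, was not called in either fraction (0.07 and 0.04, adjusted p = 0.363 and 0.589).

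Of 25 genes for assembly and rRNA modification, 4 rose and 1 fell in total RNA (among all genes 23.8% rose and 29.2% fell). In IP RNA 5 rose and 5 fell (among all genes 29.2% rose and 30.4% fell). The one that fell in total RNA was Tfb1m, which dimethylates the small-subunit rRNA, from 7.82, 7.15 and 6.96 CPM to 4.45, 4.06 and 4.22 CPM (-0.78 ± 0.10, adjusted p = 6.7e-06). Nsun4, another rRNA methyltransferase, rose (0.39 ± 0.08, adjusted p = 0.000462), and so did Ngrn (0.33 ± 0.07 in total, 0.68 ± 0.07 in IP RNA, adjusted p = 0.00165 and 1.42e-06). Of 15 translation factors 2 rose (13.3%) and 4 fell (26.7%) in total RNA, neither above the share of all genes. The elongation factor Gfm1 fell (-0.29, adjusted p = 0.00272), as did the recycling factor Mrrf (-0.31, adjusted p = 0.00863), and Lrpprc, which stabilises mitochondrial mRNAs, rose (0.29, adjusted p = 0.00246).

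Of 13 genes for mitochondrial DNA upkeep and transcription 5 fell (38.5%) and 1 rose (7.69%) in total RNA. Among all genes 29.2% fell and 23.8% rose. Mgme1, an exonuclease of mitochondrial DNA, fell most, from 10.39 ± 0.357 to 4.651 ± 0.429 CPM (SD, n = 3; -1.16, adjusted p = 1.71e-08). Polg, the DNA polymerase, and Tfam, which packages the genome, had log2 fold changes of -0.57 and -0.52 (adjusted p = 5.6e-05 and 7.8e-05).

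Of 11 measured regulators of nuclear genes for mitochondria 6 fell (54.5%) and 1 rose (9.09%) in total RNA, where 29.2% of all genes fell and 23.8% rose. Nrf1, which binds the motif shown above, had 13.76, 13.75 and 13.08 CPM with NT siRNA and 7.947, 8.404 and 7.613 CPM with Pdx1 siRNA in total RNA. The groups were apart (-0.76 ± 0.08, adjusted p = 1.13e-06), and IP RNA showed the same direction (-0.80 ± 0.08, adjusted p = 6.52e-07). Gabpb2, a subunit of GABP, had -0.50 in total and -0.31 in IP RNA (adjusted p = 2.93e-05 and 0.00195), and Myc -0.69 and -0.85 (adjusted p = 9.57e-05 and 5.23e-05). Esrra, an orphan nuclear receptor, rose from 11.05, 10.56 and 9.686 CPM to 16.48, 15.17 and 14.95 CPM in total RNA (0.58 ± 0.08, adjusted p = 2.76e-05) and by 0.83 in IP RNA. These values stand beside those of the members, and no link between them was tested.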

How the data were processed

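Each library came as 1 file in which the authors deposited unnormalized counts, as whole reads for every RefSeq transcript. Per the submitters' processing notes, TopHat2, featureCounts and mm10 were used. For strand use and for reads with several matches the setting is not given in the sources used here. Members that lie partly opposite another gene, among them Mrpl13 (27.0% of exons) and Mrpl12 (15.2%), may therefore hold its reads. Symbols came from a RefSeq table of GRCm38.p6 for 16838 of 17133 transcripts; the other 295 held 0.58% to 0.83% of counts and were left out. Where a gene had several transcripts (7 members), the one with most counts over all libraries stood for it. Library totals were 29430690 to 45806807; counts carry no molecular identifiers, so counting error is a lower limit.

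All 12643 genes were tested with edgeR 4.0.16 (R 4.3.3): TMM, default expression filter (0 genes removed), a mean per group over all 12 libraries, quasi-likelihood test, Benjamini-Hochberg adjustment over all genes, threshold 0.05. The test was also tried on counts simulated from the fitted values, and the outcome is not given here. Alternatives were RLE, upper-quartile and no scaling, DESeq2 1.42.0, filters, gene summary, blocks and left-out libraries. Near-identical copies (95% identity over 100 bases, covering at least 50% of the transcript) were found with minimap2 2.31 on GENCODE M21 transcripts.

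Members given with library values were up to 6 at each end of a contrast among those past the test, at 5 CPM or more and without overlap; others were named by role, by level per kb, by copies, or as up to 3 genes per list with the smallest p. The members, lists and rules were chosen with earlier results of these data known.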

Additional observations from a re-analysis of the deposited data

How the results depend on the processing

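Of the counts and medians, 372 values under an alternative stayed close and 34 moved; of the values of single genes, 2122 kept direction and call, 105 lost the call and 4 changed sign. Library sizes without scaling factors, chosen after seeing the data, shifted the median of all genes to -0.317 in total and -0.318 in IP RNA (siRNA effect) and to -0.311 and -0.343 (IP to total, NT and Pdx1). In total RNA 72 members then fell and 0 rose (median -0.54), where 55.0% of all genes fell and 11.7% rose. In IP RNA it was 58 and 0 (median -0.46), where 53.5% of all genes fell and 13.4% rose. The IP to total medians were 0.43 (1 lower) and 0.53 (6 lower), where 52.1% and 54.2% of all genes were lower. Mrpl38, Mrps21, Mrpl17 and Mrpl24 had -0.016, -0.031, -0.06 and -0.097 in IP RNA, and Mrps34 -0.075. Upper-quartile factors gave 3 that rose in total RNA and kept 34 of the 46 that fell. Under these factors 27.1% of all genes rose and 24.1% fell. The term for NT IP replicate 3 and the Pdx1 IP libraries gave 20 lower and 0 higher in IP RNA. Without NT IP replicates 1 and 2 (chosen after seeing the data) it was 15 and 0, with 1 lower in each IP to total comparison. Leaving out 1 library at a time gave 0 to 2 higher and 21 to 54 lower in total RNA. Of all genes 20.7% to 25.9% then rose and 21.0% to 30.6% fell. In IP RNA it was 3 to 9 and 22 to 33, where 25.4% to 30.9% of all genes rose and 26.8% to 31.8% fell. For the interaction it was 0 to 4 and 0 to 3, where 0.0316% to 4.52% of all genes were called. The NT IP to total median ranged from 0.709 to 0.819, and 0 to 1 members were lower with Pdx1 siRNA. DESeq2 called 2 interactions higher and 1 lower. With the replicate number as a block the interaction had 2 higher and 1 lower, where 2.95% of all genes were called. Then 54 members fell in total RNA (31.6% of all genes) and 33 in IP (31.9%), where 9 rose (30.8%). Same-numbered libraries correlated at -0.105 to 0.514 in their deviations from group means, with 9 of 18 pairs over 0.1. Between NT total and Pdx1 total RNA same numbers gave 0.4, 0.456 and -0.0536, and unlike numbers -0.516 to 0.269. The labels do not say whether the numbers pair the libraries, these values do not settle it, and the main fit does not pair them. At 3 libraries a group, changes near the median of the members are close to what the test can call, and the lowest count of a member in a library was 63.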
